A study of Mus musculus with 6 samples.

Results

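The PIWI proteins and the factors that make their small RNAs were followed across RNA-seq libraries of sorted mouse kidney cells. They are 9 genes, taken by name from 26567 genes whose transcripts could be paired with a gene: Piwil1, Piwil2, Piwil4, Mov10l1, Pld6, Asz1, Gpat2, Mael and Fkbp6. For each gene the estimated counts of its transcripts were summed, and 3 Dnmt1 KO libraries were set against 3 Dnmt1 HET libraries. The cells were cap mesenchyme, the nephron progenitor tissue of the fetal kidney, collected by flow sorting at embryonic day 18.5. KO mice had the genotype Dnmt1 -/- and HET mice the genotype Dnmt1 +/-, both in the strain C57BL/6 and both as conditional alleles. All 6 libraries share the Six2.Cre transgene, so the HET cells also carry Cre and 1 deleted allele of Dnmt1, and no library without Cre was analysed here. Deletion depends on Cre driven by Six2, a transcription factor of nephron progenitors, and so reaches the cells that express Six2 and their descendants. Whether the 3 libraries of a group are separate embryos is not in the labels, and p-values here measure the spread between libraries, which may be technical.

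PIWI proteins are germline Argonautes that carry piRNAs, small RNAs that guide them to transposon transcripts. Long precursors are handed by a helicase to a nuclease on the mitochondrial surface, the fragments are loaded into a PIWI protein with the help of chaperones, and the set is amplified by reciprocal cleavage in germ granules. In the fetal testis a nuclear PIWI protein then directs DNA methylation to transposons. The kidney is not known as a site of this pathway, and several of its genes are kept silent outside the germline by methylation of their promoters, which Dnmt1 copies onto new DNA strands.

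Library totals lay between 46741667 and 61585484 estimated counts, of which 92.4% to 92.82% could be paired with a gene. Dnmt1 was at 20.9, 18.6 and 14.9 CPM in KO libraries and at 40.0, 52.4 and 51.7 CPM in HET libraries, where CPM is the count scaled to library size after adjustment for composition. Which parts of Dnmt1 the remaining reads come from was not tested. Its log2 fold change was -1.41 ± 0.15 (SE; edgeR's quasi-likelihood test, Benjamini-Hochberg adjusted p = 0.000264). Every KO library was below every HET library for Dnmt1. The summed level of 10 nephron progenitor markers was 1221 to 1498 CPM in KO libraries and 1716 to 1831 CPM in HET libraries. Of the 10, 3 were called lower in KO, Cited1, Tmem100 and Wt1, and none higher. Over all genes tested, 1.92% were lower and 4.92% higher. Meox1 had a log2 fold change of 0.54 and did not pass (edgeR's adjusted p = 0.0704). KO replicate 1 stood apart by its markers of other kidney cells, which are given beside the results below.

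In KO cap mesenchyme 6 of the 9 genes were higher than in HET, while the PIWI genes Piwil1 and Piwil4 and the nuclease gene Pld6 did not pass the test. Those that rose were Piwil2, Mov10l1, Asz1, Gpat2, Mael and Fkbp6, and none of the 9 fell. For comparison, 4.92% of the 16989 genes tested were higher and 1.92% were lower in KO (edgeR's quasi-likelihood test, threshold 0.05 after Benjamini-Hochberg adjustment). All 9 genes passed the filter on low counts and were tested. For the 6 genes that rose, every KO library was above every HET library, a pattern seen in 14.8% of all genes tested. Mov10l1, Asz1 and Fkbp6 had no count in any HET library, whereas Gpat2 and Piwil2 were already measurable there. In these bulk libraries, a larger share of cells holding a transcript and more transcript in each cell cannot be told apart.

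**Figure D1:**
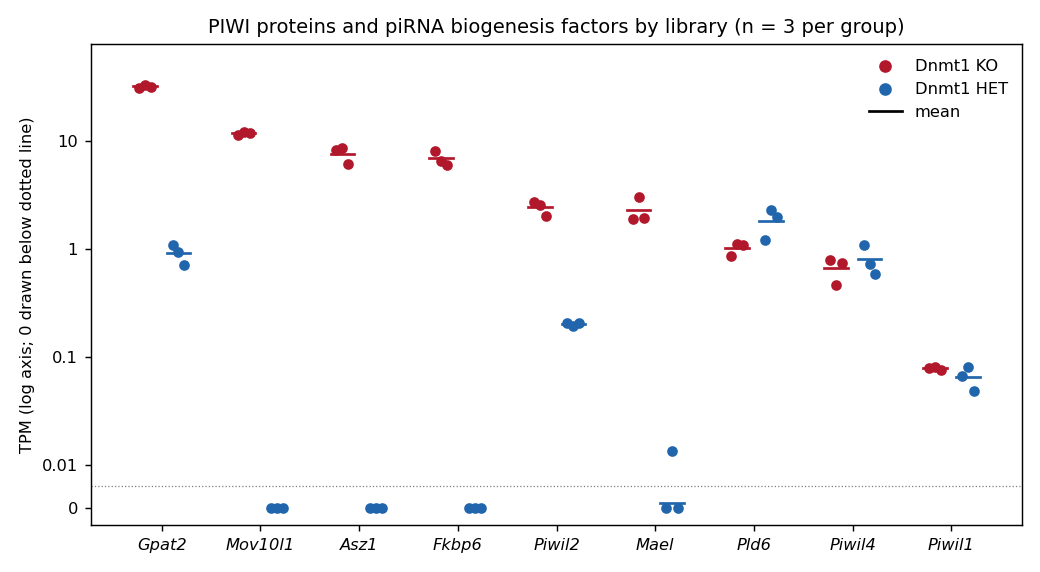
TPM (counts per transcript length, scaled to a common total, on a log axis) of the 9 genes in each library, KO in red to the left of HET in blue, with 3 libraries per group and a line at the mean; values of 0 are drawn below the dotted line. The KO points of Gpat2 lie between 31.4 and 33.6 TPM against 0.711 to 1.10 TPM in HET, while the points of Pld6, Piwil4 and Piwil1 overlap between the groups.

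The promoters of these genes are shown because the 6 that rose moved together and because methylated germline promoters are known to be rich in CpG. The windows are the 250 bases before a transcript start, read from RefSeq's promoter table (GRCm38.p6), 5′ to 3′ on the strand of the gene. Capitals mark matches to CACGTG, an E-box that reads the same on both strands, and to TCCCGC, the core of an E2F site searched on both strands. The first has been linked to the MGA and MAX proteins and the second to E2F6 in complexes that silence germline genes. Mov10l1 lies at chr15:88982744-88982993 on the plus strand, Mael at chr1:166238745-166238994 on the minus strand, Fkbp6 at chr5:135350045-135350294 on the minus strand, Gpat2 at chr2:127424949-127425198 on the plus strand and Piwil1 at chr5:128735996-128736245 on the plus strand.
Mov10l1: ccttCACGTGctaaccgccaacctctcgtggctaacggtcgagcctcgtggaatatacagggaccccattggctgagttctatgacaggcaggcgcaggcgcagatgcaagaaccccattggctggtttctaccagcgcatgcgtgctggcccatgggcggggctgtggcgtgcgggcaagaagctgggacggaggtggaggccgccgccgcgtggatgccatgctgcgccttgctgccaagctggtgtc
Mael: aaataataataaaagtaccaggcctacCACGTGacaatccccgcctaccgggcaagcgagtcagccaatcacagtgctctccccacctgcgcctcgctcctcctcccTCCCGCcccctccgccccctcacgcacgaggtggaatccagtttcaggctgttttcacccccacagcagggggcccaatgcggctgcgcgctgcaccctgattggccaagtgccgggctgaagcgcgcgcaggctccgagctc
Fkbp6: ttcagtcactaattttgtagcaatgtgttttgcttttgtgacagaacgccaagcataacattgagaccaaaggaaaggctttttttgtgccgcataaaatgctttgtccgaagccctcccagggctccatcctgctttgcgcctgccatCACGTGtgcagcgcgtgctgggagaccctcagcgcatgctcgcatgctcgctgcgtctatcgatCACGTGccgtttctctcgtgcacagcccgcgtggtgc
Gpat2: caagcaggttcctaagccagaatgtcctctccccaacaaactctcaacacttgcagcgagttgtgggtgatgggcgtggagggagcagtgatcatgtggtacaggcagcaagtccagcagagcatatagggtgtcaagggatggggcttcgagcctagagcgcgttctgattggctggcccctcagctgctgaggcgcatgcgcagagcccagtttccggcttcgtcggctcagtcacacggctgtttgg
Piwil1: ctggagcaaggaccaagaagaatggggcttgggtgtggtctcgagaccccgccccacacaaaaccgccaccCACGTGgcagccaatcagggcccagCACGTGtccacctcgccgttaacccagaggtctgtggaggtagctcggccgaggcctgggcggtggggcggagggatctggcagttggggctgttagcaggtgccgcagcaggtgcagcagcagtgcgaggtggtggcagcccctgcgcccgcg

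RefSeq's table held 11 windows for 8 of the 9 genes, all but Piwil2. CACGTG was present in a window of 5 of these 8 genes, Mael, Piwil1, Fkbp6, Pld6 and Mov10l1, against 6.02% of all 32851 windows of the table. By windows it was 6 of 11, but the 2 Fkbp6 windows overlap and hold the same 2 matches. Its first base lay 246 bases before the start in Mov10l1, 223 in Mael, and 101 and 37 in the Fkbp6 window shown. TCCCGC was present in the Mael window alone among the 11, against 16.9% of all windows. The median number of CpG dinucleotides was 16 over the 11 windows and 6 over all windows. In the bases searched, CACGTG did not sort the 8 genes by their response. Gpat2, which rose 38.2-fold, and Asz1, which rose as well, had no CACGTG in the 250 bases searched. Piwil1 had 2 matches and 16 CpG and did not pass the test. The 50 bases after the start were not searched. A match is a description of the letters and not of binding, and no methylation was measured here.

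Among the PIWI genes, Piwil2 alone rose. Piwil2 encodes the cytoplasmic PIWI protein that cuts transposon transcripts and binds primary piRNAs in fetal germ cells. It lies on the minus strand of chromosome 14 from 70772287 to 70828901 (NCBIM37, as are the gene positions that follow). Its level was 11.9, 12.3 and 9.39 CPM in KO libraries, against 0.817, 0.851 and 0.905 CPM in HET libraries. The groups were far apart, and the lowest KO library was above the highest HET library. The means were 11.2 ± 1.59 CPM in KO and 0.857 ± 0.0444 CPM in HET (SD, n = 3 each), a 13.0-fold difference. On the log2 scale it was 3.71 ± 0.21 (SE; edgeR's quasi-likelihood test, Benjamini-Hochberg adjusted p = 1.72e-06). Counts of Piwil2 were 42, 50 and 41 in the 3 HET libraries, so the gene was not silent there, and its single annotated transcript took all counts in both groups.

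Piwil4 encodes the nuclear PIWI protein that directs transposon methylation in fetal male germ cells. It was at 1.53, 1.02 and 1.53 CPM in KO libraries, against 1.84, 1.30 and 1.17 CPM in HET libraries, and the groups overlapped. Its log2 fold change was -0.08 ± 0.32, with a 95% interval of -0.79 to 0.64 (SE; edgeR's quasi-likelihood test, Benjamini-Hochberg adjusted p = 0.908), and the sign turned without KO replicate 2 (0.10) or HET replicate 1 (0.14). The interval leaves room for a change of either sign but not for one of the size seen in Piwil2. The total hid an unequal make-up of annotated transcripts. Of all Piwil4 counts in KO, 72.9% fell on Piwil4-002, an 11-exon transcript of 2111 bases that begins 22260 bases inside the gene. Transcripts beginning within 100 bases of the gene's start held 15.2, 15.8 and 13.8 counts in KO libraries, against 5.26, 0 and 13.2 counts in HET libraries. These were 22.1% of the counts in KO and 8.23% in HET, and the 3 KO values were all above the HET values, on counts too few for a statement about start site use. Piwil4 lies on chromosome 9 from 14500674 to 14545177 on the minus strand and overlaps Gm10706 and Gm15586 on the opposite strand. Gm15586 had no counts and none were paired with Gm10706, and reads from the opposite strand in the Piwil4 counts were not tested for.

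Piwil1 encodes the PIWI protein of meiotic and later male germ cells. It was at 0.283, 0.311 and 0.284 CPM in KO libraries, against 0.216, 0.286 and 0.169 CPM in HET libraries, with overlap between the groups. That level corresponds to 13.4, 16.1 and 14.4 counts in KO and 11.1, 16.8 and 7.68 counts in HET. The log2 fold change of Piwil1 was 0.33 ± 0.48, with a 95% interval of -0.75 to 1.4 (SE; edgeR's quasi-likelihood test, Benjamini-Hochberg adjusted p = 0.725). A difference of the size seen in Piwil2 lies outside that interval, and changes inside it were not detectable at this depth. Piwil1 lies on chromosome 5 from 129242121 to 129261349 on the plus strand.

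Of the genes that feed precursors into processing, Mov10l1 rose. Mov10l1 is the RNA helicase that binds piRNA precursors, and it lies on chromosome 15 from 88813339 to 88885582 on the plus strand. Its level was 23.2, 26.2 and 26.1 CPM in KO libraries and 0 in all 3 HET libraries. It was at least 430-fold higher in KO than 3 counts per HET library allow (edgeR's quasi-likelihood test, Benjamini-Hochberg adjusted p = 7.37e-08). Among themselves the KO values of Mov10l1 differed by little, with a coefficient of variation of 6.74%. Transcripts that begin within 100 bases of the annotated start took 99.1% of its KO counts. The 27-exon coding transcript Mov10l1-201 took 72.1% of them, and the 845-base transcript Mov10l1-002, annotated as a retained intron, took 15.8%. Because TPM divides by length, that short transcript carried 50.9% of the gene's TPM in KO.

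Pld6 encodes the mitochondrial endonuclease that cuts precursors into piRNA intermediates. It was at 1.21, 1.6 and 1.61 CPM in KO libraries, against 1.59, 2.91 and 2.49 CPM in HET libraries. KO replicates 2 and 3 were just above HET replicate 1, so the groups overlapped. The log2 fold change of Pld6 was -0.66 ± 0.31, with an unadjusted 95% interval of -1.34 to 0.02 (SE; edgeR's quasi-likelihood test, Benjamini-Hochberg adjusted p = 0.240). This value was negative under all 15 alternatives tried, between -0.87 and -0.47, and passed the threshold under none of them. Most counts of Pld6 (93.3% in KO) fell on Pld6-002, which the annotation lists as a processed transcript and not as coding. The coding transcript Pld6-001 had 2.38, 8.95 and 3.63 counts in KO libraries, against 1.28, 23.9 and 18.1 counts in HET libraries. Pld6 lies on chromosome 11 from 59597399 to 59601147 on the minus strand.

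The 2 partners of the nuclease on mitochondria both rose. Asz1 is a scaffold protein of the mitochondrial surface and of the germ granules between mitochondria, on chromosome 6 from 18000964 to 18059061 on the minus strand. It was at 9.38, 10.8 and 7.49 CPM in KO libraries and 0 in all 3 HET libraries, which is at least 158-fold higher in KO (edgeR's quasi-likelihood test, Benjamini-Hochberg adjusted p = 2.65e-06). Its 13-exon coding transcript Asz1-001 took 87.2% of the KO counts, and the 5-exon Asz1-002 took 11.8%. Gpat2 is a mitochondrial acyltransferase of germ cells that is needed for primary piRNAs, on chromosome 2 from 127250935 to 127261828 on the plus strand. It was at 71.1, 82.7 and 76.2 CPM in KO libraries, against 2.26, 2.14 and 1.59 CPM in HET libraries. Gpat2 had the most counts of the 9 genes in KO, and it was also present in every HET library, with 116, 126 and 72 counts. The difference was 38.2-fold, a log2 fold change of 5.25 ± 0.15 (SE; edgeR's quasi-likelihood test, Benjamini-Hochberg adjusted p = 6.01e-09).

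**Figure D2:**
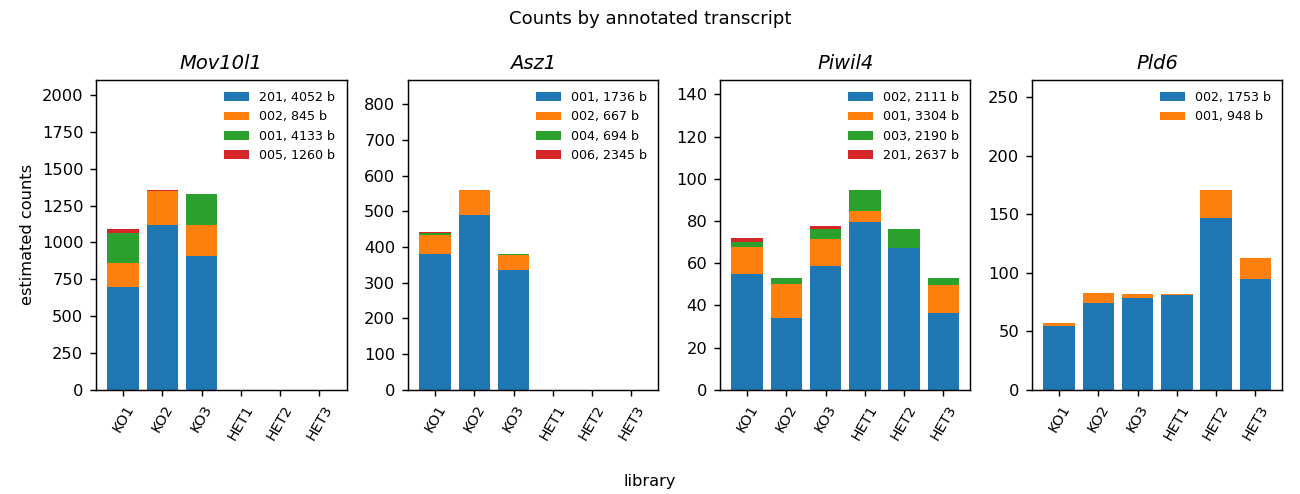
Estimated counts of Mov10l1, Asz1, Piwil4 and Pld6 in each library (KO left of HET, 1 bar per library), stacked by annotated transcript with its length in bases. The bars of Mov10l1 and Asz1 are empty in HET, and those of Piwil4 and Pld6 rest mainly on the transcripts 002 in both groups.

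Both factors that act at loading and in granules rose. Fkbp6 is a co-chaperone that works with the heat shock protein HSP90 when piRNAs are loaded, on chromosome 5 from 135767574 to 135825895 on the minus strand. It was at 9.67, 8.49 and 7.48 CPM in KO libraries and 0 in all 3 HET libraries, which is at least 146-fold higher in KO (edgeR's quasi-likelihood test, Benjamini-Hochberg adjusted p = 2.21e-06). Mael is a granule protein with an HMG box that is needed for transposon silencing, on chromosome 1 from 168131516 to 168168875 on the minus strand. It was at 2.43, 4.22 and 2.59 CPM in KO libraries, against 0, 0.0170 and 0 CPM in HET libraries, where it had 1 count in all. The count ratio of Mael was 482 with an exact 95% counting interval of 86.2 to 19097, and its call had an adjusted p of 1.62e-05 (edgeR's quasi-likelihood test, Benjamini-Hochberg). KO replicate 2 was the highest of the 3 for Mael, with a coefficient of variation of 32.2% over the group. KO replicate 2 was also the highest for 5 of the 6 genes that rose, and KO replicate 1 for Fkbp6.

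**Figure D3:**
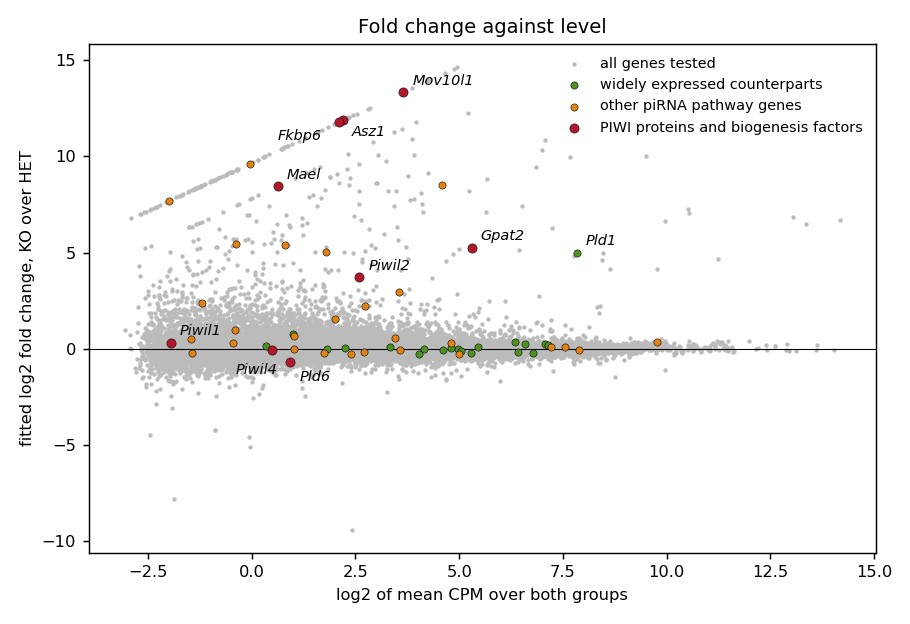
Fitted log2 fold change, KO over HET, against the log2 of mean CPM over both groups for every gene tested (grey), with the 9 genes in red, other piRNA pathway genes in orange and widely expressed counterparts in green. For genes at 0 in HET, on the oblique line at the upper left, the fitted value depends on a prior count and is no bound. Piwil1, Piwil4 and Pld6 lie near the line at 0, at -0.66 to 0.33.

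Levels can be set beside each other per length. The 9 genes summed to 65.4 ± 3.21 TPM in KO and 3.85 ± 0.375 TPM in HET (SD, n = 3 each). Gpat2 took 49.5% of the KO sum, Mov10l1 18.2%, Asz1 11.7%, Fkbp6 10.6%, Piwil2 3.75%, Mael 3.50%, Pld6 1.57%, Piwil4 1.03% and Piwil1 0.121%. In that order the KO ranges in TPM did not overlap between neighbours, apart from Asz1 beside Fkbp6 and Piwil2 beside Mael. That order depends on transcripts that are not coding, and an alternative chosen after seeing the data took protein-coding transcripts alone. Mov10l1 then stood below Fkbp6, at 5.82 ± 0.103 TPM against 6.96 ± 1.13 TPM in KO, with Asz1 at 5.32 ± 0.863 TPM (SD, n = 3 each). The KO ranges of Mov10l1 and Asz1 then overlapped. Gpat2 took 57.7% of the coding sum in KO, and Pld6, at 0.128 TPM, came after Piwil4. All 3 PIWI genes had lower TPM in KO than Gpat2, Mov10l1, Asz1 and Fkbp6 in either case. In HET the order was another one, with Pld6 at 47.7%, Gpat2 at 23.9% and Piwil4 at 21.2% of the sum, or with Gpat2 at 38.2%, Piwil4 at 33.5% and Pld6 at 16.8% over protein-coding transcripts. Piwil2 stood at 3.91 ± 1.5 times the TPM of Piwil4 in KO and at 0.269 ± 0.0831 times in HET (SD, n = 3 each).

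The 9 genes were next set beside their widely expressed relatives. Piwil2 reached 0.312 ± 0.05 times the TPM of Ago2, the cutting Argonaute of the microRNA pathway, in KO and 0.0209 ± 0.00299 times in HET. Mov10l1 stood level with Mov10, its relative outside the germline, at a TPM ratio of 0.997 ± 0.0301 in KO and 0 in HET, a ratio that counts its short retained-intron transcript and was 0.491 ± 0.04 over its protein-coding transcripts in KO. Gpat2 was at 0.807 ± 0.0146 times the TPM of Gpat4 and 24.5 ± 6.04 times that of Gpam in KO, against 0.0250 ± 0.00529 and 0.654 ± 0.173 times in HET. Both relatives are glycerol-3-phosphate acyltransferases of ordinary lipid synthesis, Gpam on mitochondria. Fkbp6 reached 0.0912 ± 0.0148 times the TPM of Fkbp4, an HSP90 co-chaperone of many tissues, in KO and 0 in HET (SD, n = 3 each for all ratios).

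Few of the relatives passed the test. Of 20 genes in the list, which also holds the microRNA enzymes, all 20 were tested, 2 were higher, none was lower and 18 did not pass. Their median log2 fold change was 0.04, against 0.00 over all genes tested, of which 4.92% were higher and 1.92% lower. Ago2 had a log2 fold change of -0.20, Mov10 of -0.22, Gpam of 0.04, Fkbp4 of 0.20 and Pld3 of 0.25 (edgeR's quasi-likelihood test, Benjamini-Hochberg adjusted p = 0.259, 0.312, 0.941, 0.242 and 0.229). Drosha, the nuclear microRNA nuclease, was 0.36 ± 0.09 higher (adjusted p = 0.0420), a call that 11 of 15 alternatives lost. It was lost without KO replicate 2 or 3 or any 1 HET replicate (edgeR's adjusted p between 0.0567 and 0.153).

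Pld1, a phospholipase D and a distant relative of Pld6, was the other relative called higher. It was at 392, 470 and 467 CPM in KO libraries, against 13.0, 11.9 and 16.6 CPM in HET libraries, and the groups were far apart. Its log2 fold change was 5.0 ± 0.15 (SE; edgeR's quasi-likelihood test, Benjamini-Hochberg adjusted p = 2.76e-08). Of its KO counts, 99.1% fell on Pld1-006, a 3-exon transcript of 2865 bases annotated as a retained intron that begins 130834 bases into the gene. The full-length coding transcript Pld1-001 took 0.255%. The higher Pld1 count in KO thus lay almost wholly on a transcript annotated as non-coding.

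The rest of the piRNA pathway was described from a list of 31 other genes, of which 27 were tested, 11 were higher, none was lower and 16 did not pass. Their median log2 fold change was 0.52, against 0.00 over all genes tested, of which 4.92% were higher and 1.92% lower. Dnmt3c could not be matched and was not analysed here, and Tdrd12, Spocd1 and Dnmt3l had too few counts for the test. Leaving out 6 helpers that also serve other tissues, 10 of 25 were higher. The 2 transcription factors of piRNA precursors, Mybl1 and Btbd18, had log2 fold changes of -0.18 and -0.20 (edgeR's quasi-likelihood test, Benjamini-Hochberg adjusted p = 0.605 and 0.725). Btbd18 was read from the annotation's Gm13718, whose 2 transcripts are both annotated as antisense, so these counts may not be those of the coding transcript of Btbd18.

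In processing and trimming, Pnldc1, the exonuclease that trims piRNA 3′ ends, rose to 6.03 ± 0.691 CPM in KO, against 2.07 ± 0.276 CPM in HET (SD, n = 3 each). Its log2 fold change was 1.54 ± 0.22 (SE; edgeR's quasi-likelihood test, Benjamini-Hochberg adjusted p = 0.00161). Tdrkh, which tethers PIWI proteins to mitochondria, was at 13.2 ± 0.451 CPM in KO and 8.82 ± 1.94 CPM in HET and did not pass (adjusted p = 0.0730, edgeR). Henmt1, which methylates piRNA 3′ ends, was at 0.343 ± 0.107 CPM in KO and 0.397 ± 0.0466 CPM in HET and did not pass (adjusted p = 0.803, edgeR).

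Among granule and amplification genes, 5 of 11 rose, against 4.92% of all genes tested. Ddx4, the helicase that marks germ cells, was at 5.39, 9.82 and 4.99 CPM in KO libraries, against 0.136, 0.408 and 0.0441 CPM in HET libraries. KO replicate 2 was again the highest, and the groups did not overlap (log2 fold change 5.03 ± 0.64, edgeR's quasi-likelihood test, Benjamini-Hochberg adjusted p = 0.00259). Gtsf1, a small protein that speeds PIWI cutting, was at 1.49 ± 0.298 CPM in KO and 0.0324 ± 0.0561 CPM in HET, where its 5 counts all lay in replicate 1. Rnf17, a Tudor protein that restrains amplification, had a log2 fold change of 2.25 ± 0.26, and the Tudor protein Stk31 one of 5.40 ± 0.66. Adad2, a granule protein of spermatocytes, had no HET count and was at least 8.53-fold higher. Adjusted p for Gtsf1, Rnf17, Stk31 and Adad2 was 0.00332, 0.000392, 0.00106 and 0.00231 (edgeR's quasi-likelihood test, Benjamini-Hochberg). Tdrd1, the Tudor partner of Piwil2, and Tdrd9, a helicase that acts with Piwil4, were at log2 fold changes of 0.65 and 0.97 and did not pass (adjusted p = 0.199 and 0.150, edgeR).

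In nuclear silencing, Tex15, a partner of the nuclear PIWI protein, was at 23.7, 24.1 and 14.2 CPM in KO libraries, against 3.23, 2.18 and 2.49 CPM in HET libraries. Its log2 fold change was 2.97 ± 0.24 (SE; edgeR's quasi-likelihood test, Benjamini-Hochberg adjusted p = 5.09e-05). Of its KO counts, 64.1% fell on Tex15-003, which begins 53806 bases into the gene, so the count does not show a full-length transcript. Morc1, which silences transposons in male germ cells, was at 0.735 ± 0.0362 CPM in KO and 0.143 ± 0.0960 CPM in HET (log2 fold change 2.37 ± 0.55, edgeR's adjusted p = 0.0291). Morc1 lost its call in 7 of 13 alternatives, among them those without any 1 KO replicate or HET replicate 1 or 2 (edgeR's adjusted p between 0.0663 and 0.109). Spocd1, which links Piwil4 to DNA methylation, had 1 count over the KO group, in replicate 1, and none in HET. Dnmt3l, the germline cofactor of the enzymes that set new methylation, was at 0.212, 0.193 and 0.413 CPM in KO libraries, against 0, 0.0510 and 0.0221 CPM in HET libraries, and was not tested.

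Of the remaining genes of the list, Tex19.1 and Tex19.2 both rose. They are near copies of each other that protect germ cells from transposons, so reads could be shared between them. Estimated counts turn fractional where reads are shared. In KO libraries they were 2122, 2917 and 2190.95 for Tex19.1 and 119, 106 and 63.05 for Tex19.2, whole or nearly whole, so few reads were divided. Tex19.1 averaged 48.1 ± 7.12 CPM in KO and 0.126 ± 0.0389 CPM in HET (SD, n = 3 each). Tex19.2 was at 2.52, 2.04 and 1.24 CPM in KO libraries and 0 in all 3 HET libraries, at least 33.1-fold higher (edgeR's quasi-likelihood test, Benjamini-Hochberg adjusted p = 0.000189). Of the 6 helpers, Hsp90aa1, the HSP90 partner of Fkbp6, was higher by a log2 fold change of 0.36 ± 0.08 (adjusted p = 0.0245, edgeR), which 6 of 15 alternatives lost, among them those without KO replicate 2 or 3 or HET replicate 2 or 3 (edgeR's adjusted p between 0.0731 and 0.107). The other helpers did not pass.

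Which steps of the pathway had all their factors was asked by detection, counting a gene as detected at 10 or more counts in every library of a group. Among all 26567 genes, 16887 to 17123 had 10 or more counts in a single KO library and 16293 to 16771 in a single HET library. That is a looser measure, and the number of genes reaching it in every library of a group was not counted. Over 23 genes sorted into 4 steps, 22 were detected in KO and 13 in HET. For processing and biogenesis the numbers were 7 of 7 in KO and 5 of 7 in HET. For loading and amplification they were 8 of 8 in KO and 4 of 8 in HET. For nuclear silencing they were 4 of 5 in KO and 2 of 5 in HET, with Spocd1 the one not detected in KO. Dnmt3l only just met the minimum there, with 10, 10 and 21 counts in KO libraries. For the pachytene arm, the branch used in meiosis, they were 3 of 3 in KO and 2 of 3 in HET, where Piwil1 missed the minimum with 7.68 counts in 1 library.

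The step list left out Tdrd12, a Tudor protein of the amplification cycle, and Exd1, a nuclease-like partner of Tdrd12, and it counted transcripts of every class. Tdrd12 had 0, 1.14 and 0 counts in KO libraries, against 0, 0 and 4.77 counts in HET libraries, and was detected in neither group. The Tdrd12 transcripts measured, of 1620 and 769 bases, do not reach the 3′ end of the annotated gene. Whether a longer Tdrd12 transcript was present was not tested. Exd1 was detected in both groups. Both genes were placed in processing, a choice made after seeing the data. Processing then had 8 of 9 in KO and 6 of 9 in HET. All steps had 23 of 25 in KO and 14 of 25 in HET. Counted by its role in amplification instead, Tdrd12 would leave loading and amplification, and not processing, incomplete in KO. Counted over protein-coding transcripts alone, also chosen after seeing the data, 20 of 23 were detected in KO and 11 in HET. Pld6 and Btbd18 were lost in both groups, which left processing at 6 of 7 in KO and 4 of 7 in HET and the pachytene arm at 2 of 3 in KO and 1 of 3 in HET. In KO the genes that missed detection by one count or another were thus Spocd1, Tdrd12, Pld6 and Btbd18.

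A stricter measure, a mean of at least 1 TPM, kept 15 of the 23 genes in KO and 5 in HET. Processing kept 6 of 7 in KO and 3 of 7 in HET, and loading and amplification 6 of 8 in KO and none in HET. Nuclear silencing kept 1 of 5 in KO, Tex15, and none in HET. The genes detected in KO but under 1 TPM were Henmt1 at 0.236 TPM, Tdrd1 at 0.538, Tdrd9 at 0.224, Piwil4 at 0.671, Morc1 at 0.265, Dnmt3l at 0.318 and Piwil1 at 0.0790. Among the 15 are Pld6 and Btbd18, on transcripts that are not annotated as coding. Nuclear silencing had the smallest share of its genes in KO by both measures, but over protein-coding transcripts the pachytene arm had a smaller share detected. Neither piRNAs nor proteins were measured.

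**Figure D4:**
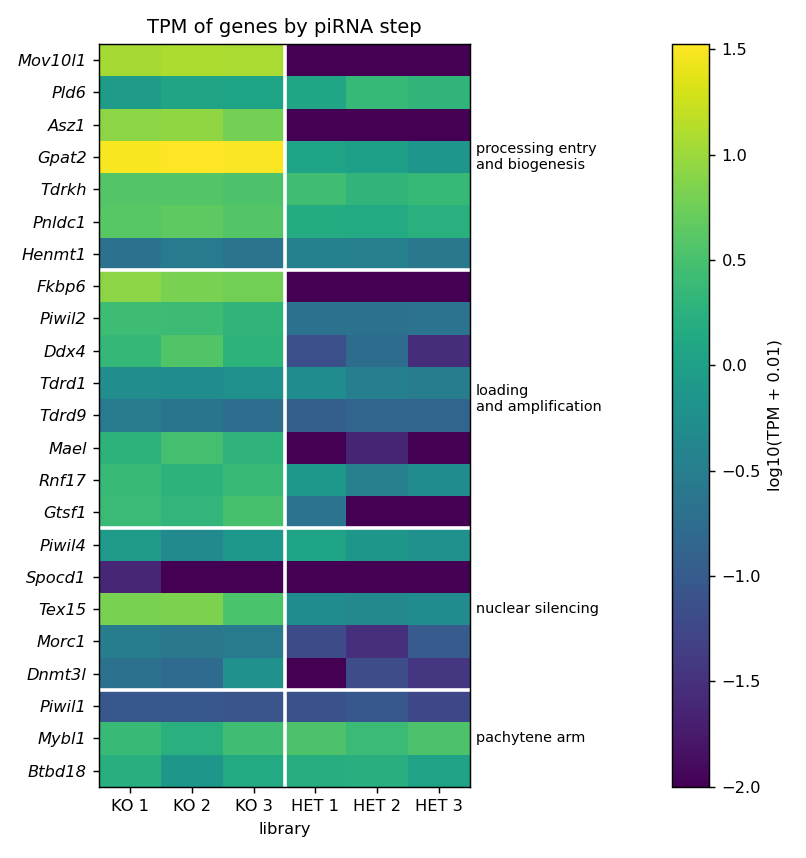
TPM on a log10 scale, with 0.01 added, of 23 genes in rows grouped by pathway step, in KO libraries (left) and HET libraries (right). The processing and the loading rows are brighter in KO for most genes, while Piwil4, Piwil1 and the rows of Mybl1 and Btbd18 look alike in both groups and Spocd1 is dark throughout.

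The neighbours of the 9 genes on the chromosome were read as a local comparison. Of the 18 flanking genes 14 were tested, none was higher, 1 was lower and 13 did not pass, with a median log2 fold change of -0.03. Over all genes tested, 4.92% were higher and 1.92% lower. Fahd2a, whose end lies 123 bases from Gpat2, was at 40.5 ± 2.72 CPM in KO and 39.8 ± 6.55 CPM in HET (SD, n = 3 each), or 0.02 on the log2 fold scale. The one lower gene was Cftr, a chloride channel gene 61626 bases from Asz1, with a log2 fold change of -0.46 ± 0.10 (SE; edgeR's quasi-likelihood test, Benjamini-Hochberg adjusted p = 0.0249), a call that 7 of 15 alternatives lost. It was lost without KO replicate 1 or 3 or HET replicate 1 or 3 (edgeR's adjusted p between 0.0629 and 0.0861). Adra2b, 57978 bases from Gpat2, had a log2 fold change of 1.18 ± 0.36 and did not pass (SE; edgeR's adjusted p = 0.0877). Of the 14 tested, 2 had every KO library above every HET library, Adra2b and Fzd10, against 14.8% of all genes tested. Every KO library was below every HET library for Cftr, Slc39a14 and Ildr2, and the share of all genes with that pattern was not computed. The 4 not tested were Rimbp2, Mlc1, Panx2 and Gpa33, all under 1 CPM. Gpa33, beside Mael, had 23, 3 and 7 counts in KO libraries and none in HET.

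Markers of other cells were set beside these values. Endothelial markers summed to 220, 90.8 and 49.1 CPM in KO replicates 1, 2 and 3, against 35.1, 41.9 and 37.2 CPM in HET, and stromal markers to 892, 459 and 390 CPM in KO, against 307, 367 and 281 CPM in HET. Ureteric bud markers summed to 102, 51.8 and 20.6 CPM in KO, against 17.1, 32.2 and 22.9 CPM in HET, and immune markers to 23.9, 16.4 and 18.1 CPM in KO, against 17.1, 12.4 and 14.8 CPM in HET. KO replicate 1 was the highest library in all 4 lists. Every KO library was above every HET library for the endothelial and the stromal sums, and KO replicates 1 and 2 were for the ureteric bud sum. Of the 6 genes that rose, 5 were highest in KO replicate 2 and 1 in KO replicate 1. All 6 kept their call without KO replicate 1, with adjusted p between 2.60e-09 and 1.15e-05 (edgeR's quasi-likelihood test, Benjamini-Hochberg). The one gene called higher was Emcn of 10 in endothelium, Ret of 7 in ureteric bud and Lyz2 of 6 in the immune list. None of 8 stromal genes was called, and 4.92% of all genes tested were higher.

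Cells that normally run this pathway were looked for by marker lists of germ cells and of gonad and adrenal soma. A list of 8 germ cell identity genes summed to 22.6, 15.6 and 13.3 CPM in KO libraries, against 11.1, 11.8 and 15.2 CPM in HET libraries, and the groups overlapped. Of the 8, 7 were tested and only Dnd1 was called higher, against 4.92% of all genes tested. Kit made up much of the sum in both groups. Ddx4, which also marks germ cells, was kept in the pathway list and not in this one. It was higher in KO, as given above (log2 fold change 5.03 ± 0.64, edgeR's adjusted p = 0.00259). Dppa3 had 31 counts over the KO group and 1.75 over the HET group, and Pou5f1 had 95 counts over the KO group and 126 over the HET group. Markers of gonad and adrenal soma summed to 8.23, 4.4 and 5.36 CPM in KO libraries, against 7.0, 7.3 and 7.77 CPM in HET libraries. Star made up most of that sum in every library, and 2 of the 8 genes had counts enough for the test. Amh had 4 counts in KO and 6 in HET. The part of other cells in the rise of the 6 genes was not tested beyond these values.

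Outside the pathway, the 5 protein-coding genes whose log2 CPM followed the mean profile of the 9 genes most closely over the 6 libraries were Dnahc6, Dtx4, Arrdc4, Cerkl and Lrrc28, with Pearson's r of 0.995, 0.993, 0.992, 0.992 and 0.992. The likeness is a description over 6 libraries in 2 groups, and 14 of 14507 genes compared had an r above 0.99. Their fold changes differed widely. Dnahc6 was at 8.23, 10.5 and 8.29 CPM in KO libraries, against 0.369, 0.425 and 0 CPM in HET libraries. Lrrc28 was at 17.1, 16.9 and 17.6 CPM in KO libraries, against 11.0, 12.7 and 10.8 CPM in HET libraries.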

How the data were processed

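RNA-seq of 3 KO and 3 HET libraries was analysed. The authors deposited 1 kallisto table per library with estimated counts, also called expected counts, which can be fractional, and TPM per transcript, per the file headers. The submitters' processing notes name kallisto and mm10. The kallisto version, index annotation, strandedness and read length: not given in the sources used here. Groups and replicates came from the sample titles.

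Of 96626 transcripts per table, 74519 were paired with a gene of the NCBIM37 annotation (GENCODE) by Ensembl ID and 22107 were not. Counts were summed per gene, rounded and tested with edgeR 4.0.16 in R 4.3.3 (TMM scaling, filterByExpr, robust quasi-likelihood fit, Benjamini-Hochberg over 16989 genes, threshold 0.05). CPM uses TMM-scaled totals. Folds against 0 counts use 3 counts per library as a floor, and counting intervals and floors cover counting error only. The biological coefficient of variation was 0.21. Within-group chi-square per degree of freedom was 13.63 or more, so no library was a repeat of another. On simulated data with 200 genes changed 4-fold among 16728 genes, 77.5% were recovered with 7 false calls. Alternatives were DESeq2 1.42.0, its size factors, library totals, no filter, limma 3.58.1 on log2(TPM + 1) and log2(TPM + 0.1), the replicate number as a block, the leading transcript only, and each library left out; Tdrd12 and Exd1 as step genes and protein-coding transcripts alone were added after the data were seen. Intervals of fold changes use the t quantile at the test's degrees of freedom.

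The 9 genes and all lists (31 pathway genes, 20 relatives, 18 neighbours, steps, markers) were chosen with earlier results of these data known, so counts over them are descriptions. Named are all 9 genes, Dnmt1, pathway genes, relatives and neighbours that passed the test, step genes not detected in KO, Ago2, Mov10, Gpam, Fkbp4 and Pld3, and the 5 genes most like the mean profile, on log2(CPM + 0.5), predicted genes left out. Other genes were named after their values were seen.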

Additional observations from a re-analysis of the deposited data

How the results depend on the processing

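The 6 higher and 0 lower calls among the 9 genes held under all 15 alternatives tried, with the 6 genes each past the threshold in every one. Of the fold changes of single genes under alternatives, 300 kept direction and side of the threshold, 31 lost the call and 2 turned sign. Those 2 were Piwil4, at 0.10 without KO replicate 2 and 0.14 without HET replicate 1, in a range of -0.21 to 0.14 with 1 library left out. Piwil1 and Piwil4 were below the TPM filter and got no value there. The log2(TPM + 1) fold of Piwil2 was 1.52 against 3.71 in the count test, since a pseudocount shrinks low genes.

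The 836 higher genes of the whole table became 1356 with DESeq2, 457 with log2(TPM + 1), 454 with log2(TPM + 0.1) and 548 with log2(TPM + 1) unfiltered, and 526 to 916 with 1 library left out. The 327 lower genes became 591 with DESeq2, 1883 with library totals, 761 and 756 with the 2 filtered TPM settings, 202 with the leading transcript only, and 116 to 272 with 1 library left out. Without KO replicate 2 there were 526 higher and 116 lower genes, and 170 and 171 lower genes without HET replicate 2 and HET replicate 3. The median over all genes was -0.17 with library totals and -0.13 and -0.14 with the filtered TPM settings. The 11 higher pathway genes became 7 and 7 with the filtered TPM settings. The 2 higher relatives became 1 with library totals, with all 3 TPM settings, with the replicate block and with the leading transcript, and 1 to 2 with 1 library left out, while 2 relatives were lower with library totals. Among neighbours, DESeq2 called 2 higher and no filter 1, and Cftr was lost with the unfiltered TPM setting, the replicate block and the leading transcript (0 lower each), and with 1 library left out 0 to 1 were higher and 0 to 1 lower. The HET step genes detected were 5 by mean TPM against 13 by counts. Over protein-coding transcripts, an alternative added after the data were seen, Gpat2 took 57.7% of the KO sum against 49.5%. The cause of these shifts was not tested.

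Same-numbered KO and HET libraries did not deviate together (r between -0.068 and -0.031, against -0.114 to 0.135 for other numbers). Whether libraries of the same number share a litter or a batch is not in the labels, and these values cannot decide it. With the replicate block, 707 genes were higher and 265 lower, and 6 of the 9 genes were higher. Depth limits Piwil1, at 7.68 to 16.8 counts per library.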
